A study of Mus musculus with 6 samples.

Results

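Conventional type 1 dendritic cells (cDC1) were rare in the injured mouse cortex, with 77 nuclei among 61973 nuclei that passed filtering in 6 single-nucleus RNA-seq (snRNA-seq) libraries. The nuclei were chosen by these counts themselves: a nucleus was taken as cDC1 when it held at least 2 of the 6 genes Xcr1, Clec9a, Gcsam, Clnk, Ifi205 and Gpr33 with 1 or more unique molecular identifiers (UMIs, each standing for 1 captured RNA molecule). It also had to hold no UMI of Cd3e (T cells), Pax5 (B cells), Col1a2 (fibroblasts) or Cd163 (macrophages). Nuclei passed with at least 800 UMIs and under 5% of them mitochondrial, which kept 61973 of 67360 barcodes. Of the 77 nuclei, 52 (67.5%) lay in the libraries of mice given ADWA11, which made up 38.5% of the passing nuclei.

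cDC1 are the dendritic cells that take up material from dying cells and present it on MHC class I to CD8+ T cells, a route called cross-presentation. They develop under the transcription factors IRF8 and BATF3 and depend on the growth factor FLT3L. XCR1 on their surface is the receptor for XCL1, a chemokine made by NK cells and CD8+ T cells, and CLEC9A binds actin exposed on dead cells. In the uninjured brain dendritic cells are mostly found at its borders, in the meninges and choroid plexus.

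The rule genes lie at separate sites of the mouse genome (GRCm38, GENCODE M21 gene bounds). Xcr1 spans chr9:123852315-123862029 on the minus strand, Clec9a chr6:129408862-129424763 on the plus strand and Gcsam chr16:45610380-45622867 on the plus strand. Clnk, an adaptor of immune receptor signalling, spans chr5:38706462-38876812, Ifi205, a member of the interferon-inducible p200 family, chr1:174011998-174031810, and Gpr33, a receptor of the chemoattractant family, chr12:52023003-52028063, each on the minus strand. To show what stands before the start of genes that mark these nuclei, 180 bases upstream of the RefSeq transcription start are printed for 4 of them (GRCm38.p6, 5′ to 3′ on the strand of the gene). Capitals mark matches to the interferon-stimulated response element, written as GAAA, any 2 bases and GAAA (Ifi205 and Tlr11), or to the STAT motif TTCNNNGAA (Clnk and Irf8).
Ifi205, chr1:174031756-174031935, minus strand: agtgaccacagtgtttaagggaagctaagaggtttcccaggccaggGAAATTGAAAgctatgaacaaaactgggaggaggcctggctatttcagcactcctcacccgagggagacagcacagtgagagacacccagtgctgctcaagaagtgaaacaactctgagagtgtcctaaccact
Tlr11, chr14:50357734-50357913, plus strand: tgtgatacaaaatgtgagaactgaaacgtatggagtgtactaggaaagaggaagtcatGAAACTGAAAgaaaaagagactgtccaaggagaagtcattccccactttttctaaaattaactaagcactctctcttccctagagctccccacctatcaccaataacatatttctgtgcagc
Clnk, chr5:38876694-38876873, minus strand: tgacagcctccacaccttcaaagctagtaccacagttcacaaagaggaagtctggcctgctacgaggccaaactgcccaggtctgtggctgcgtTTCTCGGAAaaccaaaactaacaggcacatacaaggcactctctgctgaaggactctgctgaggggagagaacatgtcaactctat
Irf8, chr8:120736178-120736357, plus strand: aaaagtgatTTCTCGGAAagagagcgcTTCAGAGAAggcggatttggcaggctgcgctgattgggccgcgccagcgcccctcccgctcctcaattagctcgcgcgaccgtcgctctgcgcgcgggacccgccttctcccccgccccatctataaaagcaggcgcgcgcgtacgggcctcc

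Searched on both strands from 250 bases before to 50 bases after the start, the response element stood in 3.44% and TTCNNNGAA in 8.30% of 32851 RefSeq windows of the mouse genome. The 24 genes among the rule genes and other cDC1 markers that had a window had 29 windows. The first motif stood in 3 of these (Dpp4, Ifi205 with 2 matches, and Tlr11). The second stood in 4 (Batf3, Clnk, Gpr33 and Irf8, the last with 2 matches). The AP-1 motif TGANTCA, which BATF3-type factors can bind, stood in 7.81% of all windows and in 2 of these 29, those of Notch4 and Zbtb46. These are matches of letters, and no binding was measured.

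The libraries were made from lesions dissected after photothrombotic (PT) injury of the cortex, in which light and a circulating dye close the vessels. Ctrl mice were wild type, and the labels give no treatment for them. ADWA11 mice were wild type and received an antibody that blocks integrin αvβ8, an activator of latent TGFβ, weekly from the day of injury. Tgfbr2-cKO mice carried Col1a2(creER) and Tgfbr2(flox), so that tamoxifen deletes the type II TGFβ receptor in cells that use the Col1a2 promoter, chiefly fibroblasts. Every group shared the PT injury and was sampled at 7 and 21 days post-injury (dpi). The labels give no age. Each library pooled 1 male and 1 female mouse and was the single library of its group, so differences between groups below have no replicate, no p-value is given for them, and all intervals are exact 95% intervals that cover counting error only. A smaller number of cells and less RNA per cell cannot be told apart from the count of cDC1 nuclei, since detection of the rule genes depends on both.

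The 6 libraries held 7205 to 14246 barcodes and 64798965 to 140310354 UMIs each. cDC1 nuclei had a median of 5852 UMIs (1245 to 75104) and 2567 genes, close to the 6244 UMIs of all passing nuclei. Together they held 602467 non-mitochondrial UMIs, with the smallest sum (25565) in Ctrl and the largest (154104) in Tgfbr2-cKO, both at 21 dpi. In these sums 3 UMIs, the floor used for a gene not seen, were worth 19.5 to 117 CPM (UMIs of a gene scaled to a fixed total of non-mitochondrial UMIs). Of 200 nuclei with at least 2 rule genes, 123 were left out by an excluding gene, and 122 of these held Col1a2. For 118 Col1a2 was the only excluding gene, and among the 122 nuclei 46 held a single Col1a2 UMI.

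Col1a2 was found across cell types and not only in fibroblasts. In T-like nuclei at 7 dpi it was detected in 67.7% (Ctrl), 46.4% (ADWA11) and 3.45% (Tgfbr2-cKO), the order kept for groups of values here, and at 21 dpi in 77.5%, 63.8% and 7.79%. Neurons, which should lack it, held it in 68.4%, 67.9% and 5.80% at 7 dpi and in 77.7%, 51.9% and 12.3% at 21 dpi. Nuclei with at least 3 fibroblast markers made up 28.9%, 29.6% and 2.57% of the libraries at 7 dpi and 44.5%, 29.8% and 8.17% at 21 dpi. The exclusion of Col1a2 removed 15 of 22 nuclei with cDC1 genes from Ctrl at 7 dpi and 25 of 29 at 21 dpi, and 0 of 4 and 3 of 13 from Tgfbr2-cKO. With Col1a2 allowed there were 195 nuclei in all, 22, 36 and 4 at 7 dpi and 29, 91 and 13 at 21 dpi, in place of 7, 20 and 4 and 4, 32 and 10. Values below are by the rule except where Col1a2 is said to be allowed. Among the 118 added nuclei 31 were called doublets and 28 held at least 3 fibroblast markers, against 5 called doublets among the 77 nuclei of the rule.

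**Figure D1:**
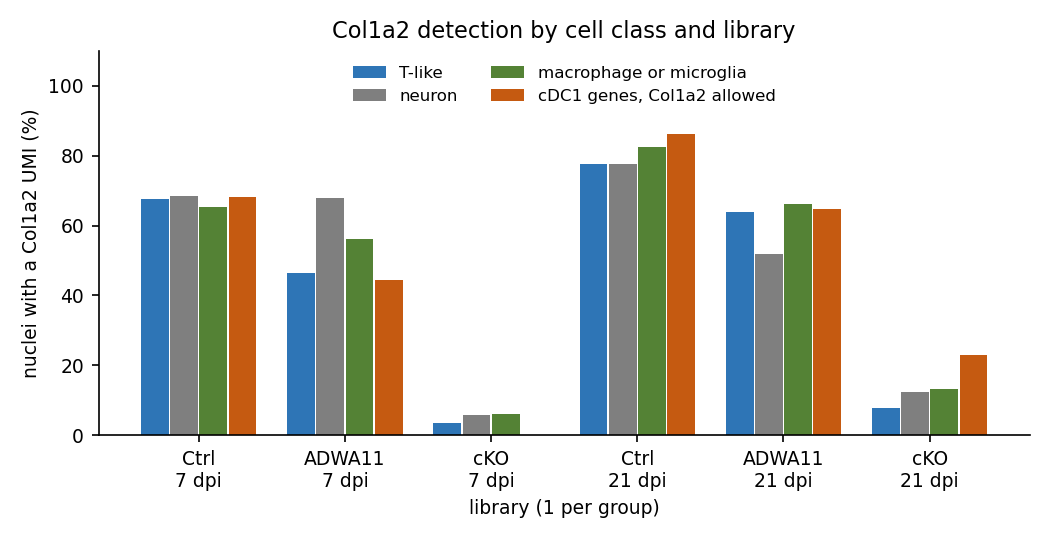
Percent of nuclei with at least 1 Col1a2 UMI (y axis) in each of the 6 libraries (x axis), as bars for T-like nuclei, neurons, macrophages or microglia, and nuclei with cDC1 genes when Col1a2 is allowed. In the 4 Ctrl and ADWA11 libraries the bars of T-like nuclei stand between 46.4% and 77.5%, and in the Tgfbr2-cKO libraries at 3.45% and 7.79%.

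The label cDC1 was checked on genes that the rule did not use. Of the rule genes, Clec9a was detected in 92.2% of the 77 nuclei, Clnk in 76.6%, Ifi205 in 64.9%, Xcr1 in 62.3%, Gcsam in 55.8% and Gpr33 in 15.6%. Among genes outside the rule, Ptprc, the pan-leukocyte gene for CD45, was detected in 98.7%. Wdfy4, required for cross-presentation, was detected in 97.4%, the growth factor receptor gene Flt3 in 93.5%, Cadm1 in 90.9% and the lineage factor gene Irf8 in 89.6%. Naaa was detected in 87.0%, Zbtb46, a factor of conventional dendritic cells, in 81.8%, Tlr3 in 72.7%, Itgae in 64.9% and Batf3 in 44.2%. Cd8a, which marks cDC1 of lymphoid organs, had 0 UMIs. Among the 640 nuclei with exactly 1 rule gene and no excluding gene these genes outside the rule, Cd8a left aside, were detected in 5.16% (Itgae) to 64.5% (Ptprc), with Cadm1 in 58.4%. Clustered without the rule genes, the 77 nuclei had among their 15 nearest neighbours a median of 9 of the nuclei counted with Col1a2 allowed, where passing nuclei had a median of 0. In all 57 (74.0%) fell in a single cluster of 1416 nuclei, of which they made up 4.03%. That cluster was led by S100a8, Il1b, S100a9 and other myeloid genes together with Btla, Ccr2 and Igha, an immunoglobulin gene of plasma cells (1569 CPM against 25.4 CPM in other nuclei). Another 12 (15.6%) fell in a cluster led by mitotic genes such as Neil3, Kif4 and Bub1.

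The rule stood on few UMIs per nucleus, and 16 of the 77 nuclei had exactly 2 rule genes. Of these 16, 11 lay in ADWA11 at 21 dpi and 0 in Ctrl at 21 dpi. With at least 3 rule genes the cDC1 share of ADWA11 at 21 dpi was 5.16-fold that of Ctrl. It was then 0.164%, against 0.172% under ADWA11 at 7 dpi. In those 16, Flt3 and Wdfy4 were each detected in 87.5%. Just outside the limit, 640 nuclei held exactly 1 rule gene and no excluding gene, in 62.2% of cases Clnk. Flt3 was detected in 13.6% of them and Wdfy4 in 32.3%. The 118 nuclei left out for Col1a2 alone had Flt3 in 70.3% and Wdfy4 in 90.7%.

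Markers of other cell types were present to different degrees in the libraries. Mast cell markers (all 4) were at 0 and summed T cell markers reached at most 74.1 CPM, with Cd3d, Cd3g and Trbc2 at 0 and 4 of 7 detected. B cell markers reached at most 27.0 CPM (Cd79a at 0) and neutrophil markers 12.98 CPM (S100a8, S100a9 and Mmp9 at 0). Fibroblast markers summed to 0 to 743 CPM with Pdgfra at 0, macrophage markers to 249 to 2226 CPM and microglial markers to 37.3 to 588 CPM with Tmem119 at 0. At least 2 of the 10 macrophage markers were held by 57 cDC1 nuclei, and at least 2 of the 5 microglial markers by 13. Astrocyte markers summed to 0 to 572 CPM in 5 libraries and to 1486 CPM in Ctrl at 21 dpi, and oligodendrocyte markers to 39.1 to 396 CPM in 5 and to 1753 CPM in Tgfbr2-cKO at 7 dpi. Markers of plasmacytoid dendritic cells summed to 24.9 to 430 CPM, highest in Ctrl at 21 dpi, with 2 of 5 detected, Klk1, Cox6a2 and Ly6d at 0, and 8 nuclei with at least 2. Ctrl at 21 dpi also had the highest fibroblast sum, and the part of this RNA in the comparisons at 21 dpi was not tested. Neuron markers summed to 0 in both ADWA11 libraries and to 4077 CPM in Tgfbr2-cKO at 7 dpi and 2083 CPM at 21 dpi. At least 2 neural markers were held by 4 of 4 and 9 of 10 cDC1 nuclei of Tgfbr2-cKO at 7 and 21 dpi, by 3 of 7 and 1 of 4 in Ctrl and by 6 of 20 and 5 of 32 under ADWA11. Passing nuclei with fewer than 2 numbered 1427 of 10968 and 1753 of 6461 in Tgfbr2-cKO. They numbered 5448 of 8070 and 8731 of 12618 in Ctrl and 7885 of 11028 and 11452 of 12828 under ADWA11. Most passing nuclei of both Tgfbr2-cKO libraries thus held at least 2 as well. The part of neural RNA in the Tgfbr2-cKO values below was not tested. A single nucleus held 54.3% of the cDC1 UMIs of Tgfbr2-cKO at 7 dpi, 43.7% of those of Ctrl at 21 dpi and 48.7% of those of Tgfbr2-cKO at 21 dpi. The libraries shared 553 barcode sequences, 4 of them held by cDC1 nuclei.

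The first comparison asked how many cDC1 each lesion held. At 7 dpi cDC1 nuclei made up 0.0867% of passing Ctrl nuclei (0.0349 to 0.179), 0.181% of ADWA11 nuclei (0.111 to 0.280) and 0.0365% of Tgfbr2-cKO nuclei (0.00994 to 0.0934). At 21 dpi their shares were 0.0317% (0.00864 to 0.0811), 0.249% (0.171 to 0.352) and 0.155% (0.0742 to 0.284). The highest share at each time was thus that of the ADWA11 library, and its interval stood clear of that of Ctrl at 21 dpi and overlapped it at 7 dpi. With Col1a2 allowed the shares were 0.273%, 0.326% and 0.0365% at 7 dpi and 0.230%, 0.709% and 0.201% at 21 dpi.

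Under ADWA11 at 21 dpi the share was 7.87-fold that of Ctrl, a log2 ratio of 2.98 (1.48 to 4.94). With Col1a2 allowed it was 3.09-fold, a log2 ratio of 1.63 (1.01 to 2.28), and against nuclei without Col1a2 alone 1.89 (0.39 to 3.85). The log2 ratio was 2.13 (0.0023 to 4.72) in female nuclei and 3.22 (0.58 to 8.60) in male nuclei, from 1 mouse of each sex per library. With Col1a2 allowed it was 1.10 (-0.025 to 2.25) and 2.25 (1.04 to 3.75), so that the interval in female nuclei then included 0. At 7 dpi the ADWA11 share was 2.09-fold that of Ctrl, with an interval that included 0 on the log2 scale (1.06, -0.24 to 2.55, and 0.26, -0.54 to 1.10, with Col1a2 allowed). At this depth a difference was not detectable at 7 dpi. The higher share at 21 dpi was not particular to cDC1. Nuclei with at least 2 of Mgl2, Cd209a, Clec10a and Cd209d, counted without Col1a2, made up 0.0634% of Ctrl and 0.631% of ADWA11 nuclei at 21 dpi. Their shares at 7 dpi were 0.0620% and 0.245%.

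For Tgfbr2-cKO the direction at 21 dpi depended on the exclusion of Col1a2. By the rule the log2 ratio to the same Ctrl library was 2.29 (0.49 to 4.41), with Col1a2 allowed it was -0.19 (-1.26 to 0.80) and against nuclei without Col1a2 it was -0.37. At 7 dpi it was -1.25 (-3.47 to 0.73) by the rule and -2.90 (-4.90 to -1.34) with Col1a2 allowed. Among nuclei with a Ptprc UMI it was -0.41 (-2.99 to 1.72) and -2.06 (-4.45 to -0.33). At this time nuclei with at least 2 neuron markers were 7210 of 10968 passing nuclei in Tgfbr2-cKO and 174 of 8070 in Ctrl. Leaving out nuclei with neural markers left 0 of 4 cDC1 nuclei in Tgfbr2-cKO at 7 dpi and 1 of 10 at 21 dpi. Over time the share did not differ beyond counting error in Ctrl, with a log2 ratio of 21 to 7 dpi of -1.45 (-3.67 to 0.52) and -0.25 (-1.10 to 0.62) with Col1a2 allowed. Under ADWA11 it was 0.46 (-0.39 to 1.34) by the rule and 1.12 (0.55 to 1.72) with Col1a2 allowed, and in Tgfbr2-cKO 2.09 (0.29 to 4.21) and 2.46 (0.77 to 4.54). By the rule the Tgfbr2-cKO interval included 0 among nuclei with a Ptprc UMI (1.68, -0.27 to 4.18). It also did in female (1.24, -1.67 to 4.14) and male nuclei (1.54, -2.10 to 7.25).

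**Figure D2:**
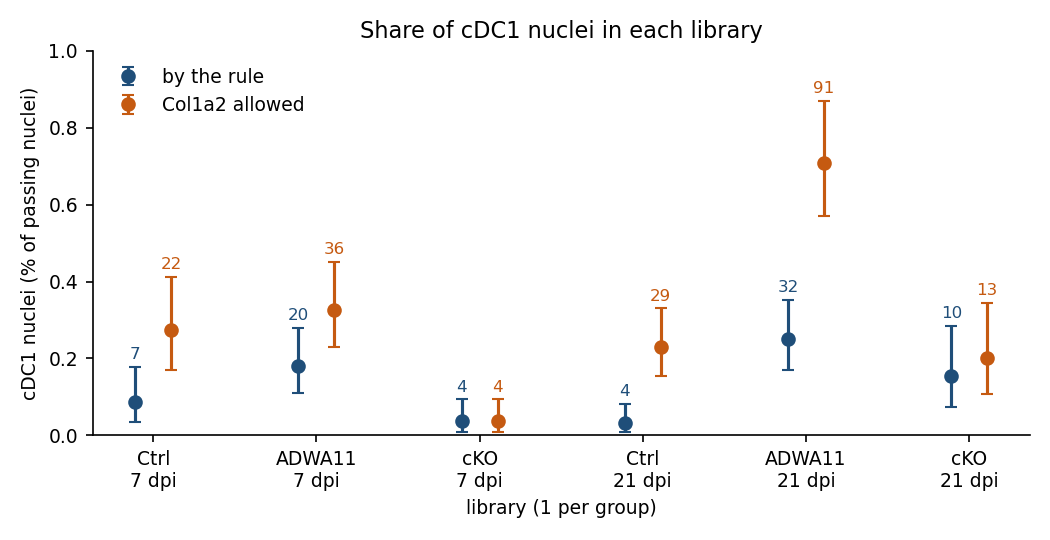
Share of cDC1 nuclei among passing nuclei in percent (y axis) in each library (x axis), by the rule and with Col1a2 allowed; points are shares, bars exact 95% binomial intervals and numbers the nuclei counted. ADWA11 at 21 dpi stands highest by both counts, with 32 and 91 nuclei.

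Counted against macrophages and microglia, the other myeloid cells of the lesion, ADWA11 at 21 dpi again had the most cDC1. There were 15.2 cDC1 nuclei per 1000 macrophage or microglia nuclei in that library, against 4.75 in Ctrl at 21 dpi, 6.60 under ADWA11 at 7 dpi and 4.29 in Ctrl at 7 dpi. Tgfbr2-cKO had 1.37 at 7 dpi and 4.10 at 21 dpi. The log2 ratio of ADWA11 to Ctrl at 21 dpi was 1.68 (0.19 to 3.64) on this scale and 1.28 (0.66 to 1.94) with Col1a2 allowed in both cell types. For Tgfbr2-cKO at 21 dpi it was -0.21 and -0.38. Under ADWA11 the ratio of 21 to 7 dpi was 1.21 (0.36 to 2.09) and 1.49 (0.92 to 2.09). In Tgfbr2-cKO it was 1.59 (-0.21 to 3.71) and 1.85 (0.16 to 3.93).

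The partner cells of cDC1 were counted by their own markers. The share of NK-like nuclei was 0.223%, 0.245% and 0.0547% at 7 dpi and 0.151%, 1.70% and 0.170% at 21 dpi, and that of CD8 T-like nuclei was 0.173%, 0.181% and 0.0547% and then 0.404%, 1.36% and 0.774%. Both were thus most frequent in the library with the most cDC1. Xcl1, the XCR1 ligand, measured 144, 352 and 1159.8 CPM in NK-like nuclei at 7 dpi and 62.4, 42.9 and 225 CPM at 21 dpi, on 5 to 77 UMIs. At 7 dpi these came from 3 of 18, 6 of 27 and 2 of 6 nuclei. In ADWA11 at 21 dpi it had 38 UMIs in 30 of 218 NK-like nuclei. cDC1 nuclei held 0 Xcl1 UMIs in every library. Flt3l, the ligand of FLT3, measured 23.4 to 56.0 CPM in T-like nuclei of the 6 libraries.

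What set cDC1 nuclei apart was tested against 12967 macrophage or microglia nuclei, called by at least 2 of Csf1r, Adgre1, Mertk and C1qa. They held no UMI of Cd3e, Pax5 or Col1a2. Cd163, which excluded a nucleus from cDC1, was allowed in them. Counts were summed per library and cell type, sums of at least 10 nuclei entered the fit and the library was a block. This kept 3 cDC1 sums (ADWA11 at 7 and 21 dpi and Tgfbr2-cKO at 21 dpi) and 6 macrophage sums, and genes used in any rule were left out. Of 14761 genes tested with edgeR's quasi-likelihood test at a Benjamini-Hochberg adjusted p of 0.05, 315 (2.13%) were higher and 362 (2.45%) lower in cDC1. With Col1a2 allowed, which brought in 5 cDC1 sums, 493 (5.92%) were higher and 539 (6.47%) lower of 8334 genes. The total of 677 genes fell to 126 of 14652 tested without ADWA11 at 21 dpi and to 427 of 15904 without ADWA11 at 7 dpi. It was 386 of 10196 without Ctrl at 21 dpi and 388 of 10189 without Ctrl at 7 dpi. Each Ctrl library gave a macrophage sum alone, so under the block it does not inform the difference between cDC1 and macrophages. Fewer genes were tested without it. Log2 fold changes are given with their standard errors. The p-values rest on the spread left after the library block, over all cell groups of the fit, the Mgl2 and Ccr7 sets given below included. The libraries are pools of mice of different groups.

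Markers of cDC1 outside the rule were higher in 14 of 21 measured genes and lower in none, with a median log2 fold change of 4.14 against -0.30 over all genes tested. With Col1a2 allowed 15 of 16 were higher. Btla, an inhibitory receptor of the immunoglobulin family, measured 1059.9 CPM in cDC1 and 1.83 CPM in macrophages, a log2 fold change of 8.64 ± 1.00 (edgeR adjusted p = 0.000323). Tlr11, a receptor for microbial profilin, was higher by 6.76 ± 0.67 (edgeR adjusted p = 1.71e-05), and Itgae, the αE integrin chain (CD103), by 6.22 ± 0.50 (edgeR adjusted p = 2.05e-06). Itgb7, whose product pairs with αE, was higher by 5.00 ± 0.59 (edgeR adjusted p = 6.83e-05). Flt3 measured 598 against 4.57 CPM (6.84 ± 1.51, edgeR adjusted p = 0.0438), and Zbtb46 was higher by 4.45 ± 0.61 (edgeR adjusted p = 0.000476). Dpp4, Naaa, Snx22, Wdfy4, Ly75, Tlr3, Cd24a, Rab43 and Id2 also passed, by 1.86 to 6.37. Irf8 was not past the threshold by the rule (1.54 ± 0.51, edgeR adjusted p = 0.0972), nor were Batf3 (1.61, edgeR adjusted p = 0.137) and Cadm1 (1.58, edgeR adjusted p = 0.0943). With Col1a2 allowed these 3 passed, Irf8 by 1.79 (edgeR adjusted p = 0.0124).

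The MHC class II genes, which present antigen to CD4+ T cells, were higher than in macrophages or microglia in 7 of 10 measured members. None was lower, with a median of 3.06 (7 of 8 higher with Col1a2 allowed). Other dendritic-like nuclei are compared below. Cd74, the invariant chain, was higher by 2.88 ± 0.64 (edgeR adjusted p = 0.0145), the master regulator gene Ciita by 3.71 ± 0.76 (edgeR adjusted p = 0.0151) and H2-Ob, a chain of the peptide-editing inhibitor H2-O, by 6.54 ± 0.78 (edgeR adjusted p = 7.35e-05). H2-Aa, H2-Ab1, H2-Eb1 and H2-DMb1 passed with 2.54 to 3.38. Of the genes of cross-presentation and MHC class I, 4 of 16 were higher and 1 lower, with a median of 0.27, and with Col1a2 allowed 5 of 15 and 1. Beside Wdfy4 and Rab43 the higher ones were Tap1 (2.63 ± 0.57, edgeR adjusted p = 0.0115), which carries peptides into the endoplasmic reticulum, and the immunoproteasome gene Psmb9 (2.35, edgeR adjusted p = 0.0343). Cybb, the catalytic chain of the phagocyte NADPH oxidase, was lower by -3.36 ± 0.62 (edgeR adjusted p = 0.00386). The class I genes B2m (-0.57), H2-K1 (-0.31) and H2-D1 (-0.24) did not pass.

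Among genes of activation Il12b, a chain of the T cell-activating cytokine IL-12, was higher by 6.46 ± 1.51 (edgeR adjusted p = 0.0235), on 8 UMIs from 1 nucleus in each ADWA11 library. Il12a, Il10, Ifnb1, Cd70, Tnfsf4 and Tnfsf18 had 0 UMIs in the 77 nuclei, and Ccr7, which guides mature dendritic cells to lymph nodes, had 3 UMIs in 2 nuclei. Of the cytokines and chemokines 1 of 16 was higher and 1, Ccl4, lower, with a median of -1.07, or 0.12 with genes unseen in cDC1 at their bound. In the co-stimulation list Btla alone of 14 passed, with a median of 0.64, and in the maturation and migration list Traf1 alone of 7 (2.65, edgeR adjusted p = 0.0422). Of the innate receptors Tlr3 and Tlr11 were higher and Tlr4, Tlr7 and Ddx58 lower among 12. Ccr2, the receptor that brings monocytes and dendritic cell precursors into tissue, was higher by 3.77 ± 0.45 (edgeR adjusted p = 7.6e-05), and with Flt3 it made 2 of 12 growth factor and chemokine receptors. Of 15 type I interferon-stimulated genes none was higher and Ddx60 was lower (-3.47, edgeR adjusted p = 0.00409), and of 13 interferon gamma-induced genes none passed in edgeR, with medians of -0.17 and 0.33. The TGFβ and integrin list had Itgae and Itgb7 higher and none lower of 16, with Tgfbr2 at -1.29 (edgeR adjusted p = 0.241).

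Genes of the cell cycle were higher in 7 of 15 members and lower in none, with a median of 1.56. Top2a, the topoisomerase of mitotic chromosomes, was higher by 2.17 ± 0.43 (edgeR adjusted p = 0.00675), and Kif11, Hells, Cenpf, Knl1, Mki67 and Kif15 by 1.76 to 2.31, of which Knl1 turned to -0.11 when nuclei were thinned to 2000 UMIs. With Col1a2 allowed 2 of 14 were higher (Hells and Pola1). Macrophage genes were lower in 6 of 6 tested members of the list of 10, among them the mannose receptor gene Mrc1 (-4.11 ± 0.67, edgeR adjusted p = 0.00151), F13a1 (-4.17), C1qb, Apoe, C1qc and Lyz2. The remaining members, Csf1r, Adgre1, Mertk and C1qa, chose the comparison nuclei, and Cd163 was barred from cDC1 alone. This direction is therefore partly set by the rules. By size the genes furthest above macrophages were Gpr141b (37.4 against 0.0261 CPM), Btla, Hepacam2 (143 against 0.423 CPM, log2 fold change 8.27), Cldn1, which codes for a tight junction protein (8.17), and Htr7, a serotonin receptor gene (530 against 2.38 CPM, 7.93). Siglecg, Flt3, Tlr11, H2-Ob and Klrb1b followed, with 6.42 to 7.33. The 10 genes furthest below had 0 UMIs in the 3 cDC1 sums by the rule. Against a floor of 3 UMIs over the group, Etv1 was at least 10.6-fold lower, the endosomal receptor gene Tlr8 at least 8.24-fold, the lipid-binding protein gene Fabp4 at least 8.15-fold, Cd200r4 at least 6.64-fold and Sema6a at least 6.32-fold. Plxna1, Rhoj, Sorbs3, Papss2 and Cd28 were at least 3.53-fold to 5.13-fold lower. These bounds hold by the rule alone. With Col1a2 allowed Fabp4 had 41 UMIs (67.2 CPM) in the cDC1 sum of ADWA11 at 21 dpi, and its log2 fold change against macrophages was -2.35. That of Tlr8 was -3.33 and that of Sema6a -2.46, while Etv1 (-0.98), Cd200r4 (-1.34), Plxna1 (-1.12) and Papss2 (-0.93) no longer passed.

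Other dendritic cells were too few for a comparison of like strength. A nucleus that met more than 1 of the rules for the comparison groups was left out of each of them. Nuclei with at least 2 of Mgl2, Cd209a, Clec10a and Cd209d, genes of type 2 dendritic cells that macrophages also use, numbered 136 before this step. The 38 left after it gave 1 sum, ADWA11 at 21 dpi, which the fit assumes to vary like the other groups. Against it edgeR called 0 genes higher in cDC1 and 3 lower (0.0203%) of 14761, Sirpb1a (-7.39, edgeR adjusted p = 0.0189), Sirpb1b (-6.97) and Abca9 (-4.92). An unadjusted p under 0.05 was reached by 695 genes in edgeR and 606 in DESeq2, which called 3. Against the Mgl2 set the MHC class II genes had a median of -0.11 and the growth factor and chemokine receptors of -0.35. With Col1a2 allowed 0 of 8 and 0 of 10 passed (medians -0.68 and -0.47). The higher MHC class II level over macrophages was thus not seen against this set. In that count 7 of 16 cDC1 markers outside the rule were higher and 0 lower (Irf8, Itgae, Ly75, Rab43, Rab7b, Tlr3 and Wdfy4). Nuclei with at least 2 of Ccr7, Ccl22, Il4i1, Fscn1 and Apol7c numbered 114 after the same step, 59 of them in Tgfbr2-cKO at 7 dpi. Their set held many neuronal nuclei, so it is not named as mature dendritic cells. Against its 4 sums 376 genes (2.55%) were higher and 129 (0.874%) lower in cDC1.

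The rule genes themselves are given as a description. At 7 dpi Clec9a measured 470 CPM (Ctrl), 911 CPM (ADWA11) and 62.1 CPM (Tgfbr2-cKO), and at 21 dpi 548, 876 and 279 CPM. Xcr1 measured 376, 224 and 49.7 CPM at 7 dpi and 156, 229 and 84.4 CPM at 21 dpi, and Clnk 447, 277 and 162 CPM and then 587, 532 and 253 CPM. Both were lowest in Tgfbr2-cKO at 7 dpi, as were Gcsam (24.9 to 229 CPM) and Ifi205 (37.3 to 370 CPM). Gpr33 ranged from 0 to 117 CPM.

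The cDC1 genes Wdfy4, Irf8, Zbtb46 and Flt3, which the rule did not use, also had their lowest levels in Tgfbr2-cKO at 7 dpi, where 2 of the 4 nuclei were called doublets. Without called doublets the log2 ratio of this library to Ctrl was -0.20 (-0.58 to 0.17) for Wdfy4, -1.09 (-2.46 to 0.03) for Irf8, -2.72 for Zbtb46 and 1.02 (0.08 to 1.90) for Flt3, so that the low level did not hold for Wdfy4 and turned for Flt3. Wdfy4, the most abundant of them, measured 8983, 6609 and 994 CPM in these groups at 7 dpi and 4694, 7637 and 3601 CPM at 21 dpi. Irf8 measured 1646, 1188 and 87.0 CPM at 7 dpi and 391, 1287 and 487 CPM at 21 dpi. Zbtb46 measured 729, 561 and 24.9 CPM and then 235, 687 and 214 CPM, and Flt3 870, 508 and 236 CPM and then 939, 869 and 415 CPM. Both Irf8 and Zbtb46 had thus 3 libraries with a high level (Ctrl at 7 dpi and both ADWA11 libraries) and 3 with a lower one. The 3 lower libraries are those in which a single nucleus held 43.7% to 54.3% of the UMIs, and the part of this was not tested.

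Differences between 2 libraries are given as log2 ratios of CPM. A gene counted as past the fold when it differed at least 2-fold with an interval that excluded 0, among genes with at least 20 UMIs over the pair. Such intervals take each UMI as independent, while a sum over 4 to 32 nuclei follows its largest nuclei, so they leave out the spread between nuclei and between mice. Scaling by TMM in place of CPM moved all ratios of a pair together, by the shift of the median given below, and left the distance of a gene or list from that median as it was.

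ADWA11 against Ctrl at 7 dpi, a comparison that asks what blocking αvβ8 does to the immune response of the lesion, put 165 of 2359 genes (6.99%) past the fold upwards and 140 (5.93%) downwards. With Col1a2 allowed the shares were 7.76% and 8.09% of 4796 genes. TMM scaling moved the median of all genes from 0.02 to 0.58 and the split to 505 upwards and 33 downwards. Among the lower genes that met the limits for naming given under processing, Itgae had the largest ratio. It measured 1223 CPM in Ctrl, with UMIs in 7 of 7 nuclei, and 244 CPM under ADWA11, with UMIs in 11 of 20, a log2 ratio of -2.32 (-2.97 to -1.69). The ratio was -1.76 under TMM scaling, -3.09 in female nuclei, -1.94 in male nuclei and -1.40 (-1.82 to -0.99) with Col1a2 allowed. Itgae is known as a gene that TGFβ induces in lymphocytes. Tgfbr1, the type I TGFβ receptor gene, measured 470 and 185 CPM, a log2 ratio of -1.35 (-2.23 to -0.44) by the rule, -1.59 (-2.09 to -1.10) with Col1a2 allowed, -0.78 (-1.66 to 0.12) under TMM and 1.51 in female nuclei, on few UMIs. In the TGFβ and integrin list these 2 were past the fold downwards and none upwards of 9, with a median of -0.42 against 0.02 over all genes tested (0.15 against 0.58 under TMM). With Col1a2 allowed 5 of 15 were past it downwards (Itgae, Tgfbr1, Itgav, Itgb8 and Smad7), with a median of -0.66 against 0.04. With called doublets (6 of 22 Ctrl and 3 of 36 ADWA11 nuclei) left out as well, Itgae and Tgfbr1 alone of 11 remained past it, with a median of -0.22 against 0.04. Itgb8 had 0 UMIs in both libraries by the rule and measured 163 and 192 CPM in their fibroblast nuclei. Of the nuclei with Col1a2 allowed 8 of 22 and 13 of 36 held at least 2 fibroblast markers, and the part of fibroblast RNA in this list was not tested.

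Among the MHC class II genes Cd74 and H2-Eb1 were past the fold upwards under ADWA11 at 7 dpi. Cd74 measured 729 CPM in Ctrl and 1532 CPM under ADWA11, a log2 ratio of 1.07 (0.53 to 1.66) and 1.00 with Col1a2 allowed. H2-Eb1 measured 329 and 746 CPM, a log2 ratio of 1.18 (0.37 to 2.10) and 1.03 with Col1a2 allowed. Of 6 MHC class II genes these 2 were past the fold upwards and none downwards (median 0.75), and with Col1a2 allowed 2 of 8 (H2-Aa and H2-Eb1). With Col1a2 allowed and called doublets left out, none of 7 was past it (median -0.07). Of the genes of cross-presentation and MHC class I 0 of 10 were past the fold by the rule, and with Col1a2 allowed Psmb9 and Tap1 of 14, upwards. Of 15 cDC1 markers outside the rule Cadm1 was higher (1.32, 0.88 to 1.79) and Itgae lower, with a median of -0.21 (0.35 under TMM). Irf8 was at -0.47 (-0.88 to -0.05), at 0.46 with Col1a2 allowed and at 0.09 under TMM. With Col1a2 allowed Naaa, Cadm1 and Tlr11 were higher and Itgae lower of 17. Interferon gamma-induced genes with Col1a2 allowed were past the fold upwards in 3 of 5 (Gbp5, Irf1 and Iigp1). By size the higher gene was Cst3, the cystatin C gene (3.58, 2.00 to 5.88, and 2.13, 1.62 to 2.68, with Col1a2 allowed), on 3 UMIs in Ctrl. Ubl3 (3.38, 0.81 to 8.72), Asap2 (3.21, 0.63 to 8.56), Rps6kb1 and Nrip1 (both 2.92, 0.32 to 8.28) followed, each on 1 UMI in Ctrl. With Col1a2 allowed Nrip1 was at -0.35. After Itgae the lower ones were Gmip (-1.83), Prkar2b and Rap1gap2.

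At 21 dpi ADWA11 put 112 of 2067 genes (5.42%) above the 4 Ctrl nuclei and 100 (4.84%) below. With Col1a2 allowed the 91 nuclei gave 8.73% and 11.3% of 7079 genes against the 29 of Ctrl. TMM scaling moved the median from 0.27 to 0.80 and the split to 418 upwards and 60 downwards. Itgae was again lower, with 1134 CPM in Ctrl and 229 CPM under ADWA11, found in 4 of 4 and 16 of 32 nuclei, a log2 ratio of -2.31 (-3.07 to -1.54) by the rule, -1.78 under TMM and -0.66 (-1.09 to -0.22) with Col1a2 allowed. Tgfbr1 measured 1017 and 128 CPM, a log2 ratio of -2.99 (-3.92 to -2.08) and -1.22 (-1.59 to -0.84) with Col1a2 allowed. Itgae thus stood lower under ADWA11 than in Ctrl at both times, by the rule, with Col1a2 allowed and under TMM. At 21 dpi the ratio was -1.95 in female and -2.80 in male nuclei, against 3 and 1 Ctrl nuclei.

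Of 15 cDC1 markers outside the rule 5 were past the fold upwards under ADWA11 at 21 dpi and Itgae alone downwards, with a median of 0.70 against 0.27 over all genes. With Col1a2 allowed 13 of 17 were past it upwards and none downwards, with a median of 1.19 against 0.12. Irf8 measured 391 and 1287 CPM, a log2 ratio of 1.72 (0.81 to 2.80) and 1.43 with Col1a2 allowed. Naaa, which codes for a lysosomal amidase, measured 196 and 1429 CPM, a log2 ratio of 2.87 (1.62 to 4.51) and 1.62 with Col1a2 allowed. Zbtb46 (1.55), Id2 (1.99), a regulator that cDC1 need, and Btla (1.38) were the others by the rule, with 1.23, 1.07 and 1.45 when Col1a2 was allowed. At least 2 fibroblast markers were held by 3 of 4 Ctrl and 8 of 32 ADWA11 nuclei at 21 dpi by the rule, and by 20 of 29 and 29 of 91 with Col1a2 allowed. By the rule fibroblast markers summed to 743 and 276 CPM and astrocyte markers to 1486 and 33.7 CPM in these 2 sums. The part of RNA from other cells in these ratios was not tested.

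Among the MHC class II genes H2-Aa measured 274 CPM in Ctrl and 1139 CPM under ADWA11, a log2 ratio of 2.06 (0.98 to 3.39) and 1.73 with Col1a2 allowed. By the rule H2-Aa alone of 7 was past the fold, with Cd74 at 0.42 (-0.08 to 0.97). With Col1a2 allowed 7 of 8 were past it upwards, among them Cd74 (1.35, 1.11 to 1.60), H2-Ab1 (1.35) and H2-Eb1 (1.51), with a median of 1.46. In the same count of nuclei 7 of 15 genes of cross-presentation and MHC class I were past the fold upwards (median 0.95), 4 of 9 co-stimulation genes (Cd40, Cd83, Cd80 and Btla), 5 of 6 cytokine genes (Il15, Il15ra, Il18, Cxcl9 and Cxcl16), 4 of 8 type I interferon-stimulated genes and 4 of 10 interferon gamma-induced genes, each with none downwards. In this count at least 3 fibroblast markers were held by 12 of 29 Ctrl and 13 of 91 ADWA11 nuclei. Called doublets were 6 and 18 of them. The part of RNA from other cells in these lists was not tested. By the rule Erap1 alone of 10 cross-presentation genes was past the fold, downwards. Of the other lists Btla alone of 3 co-stimulation genes, 0 of 1 type I interferon-stimulated and 0 of 1 interferon gamma-induced genes were past it by the rule, and no cytokine gene had enough UMIs. By size the higher genes were Cd180, Cd226, Lrmda (3.42, and -0.10 with Col1a2 allowed), Actb and Ece1. Each had 1 UMI in Ctrl, with intervals that start at 0.68 (Ece1) to 1.34 (Cd180). No lower gene met the limits for naming, which a Ctrl sum of 4 nuclei hardly allows. Cd180, a Toll-like receptor relative, had 84 UMIs against 1, a log2 ratio of 3.86 (1.34 to 9.18), and 0.98 (0.63 to 1.35) with Col1a2 allowed, and Cd226, an activating receptor gene, 3.59 and 1.51.

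**Figure D3:**
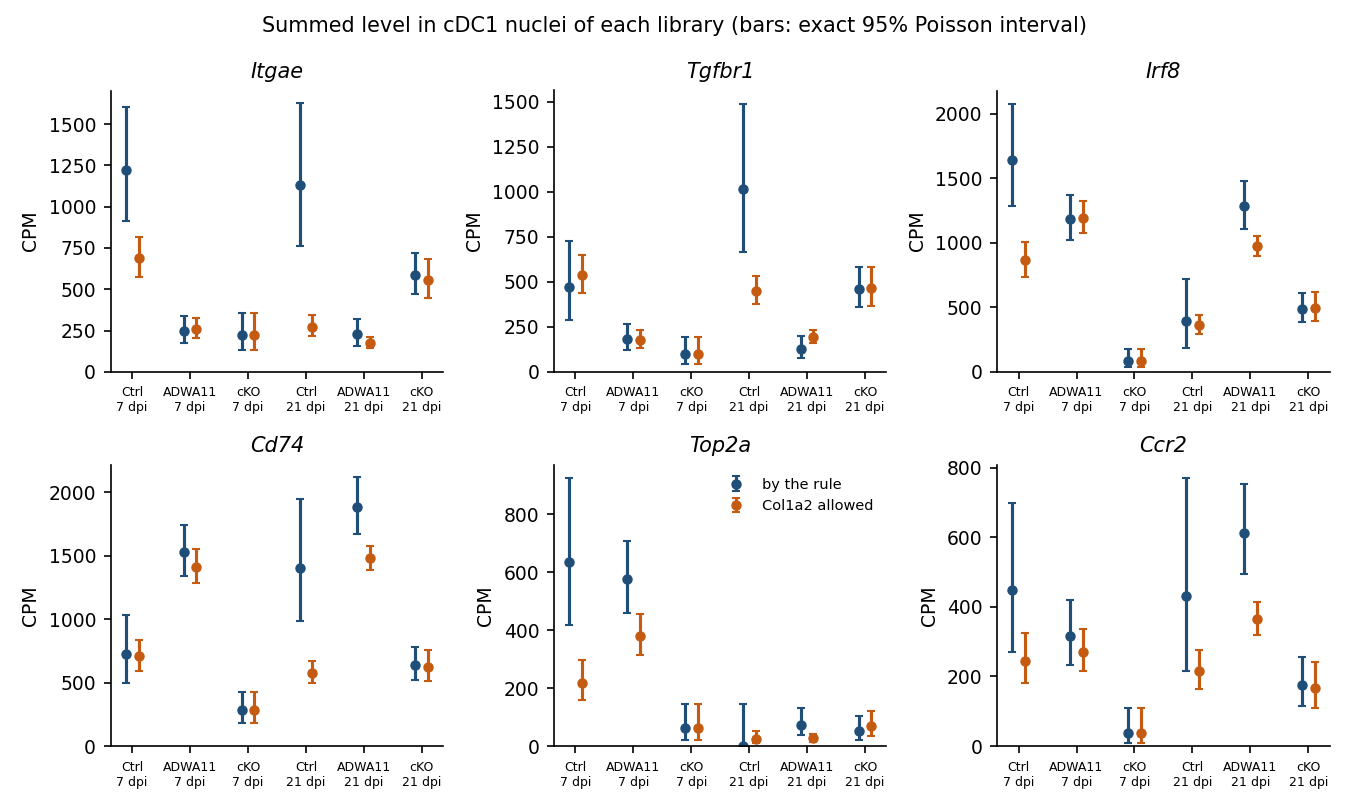
Level in CPM (y axes) of Itgae, Tgfbr1, Irf8, Cd74, Top2a and Ccr2 in the cDC1 sum of each library (x axes), by the rule and with Col1a2 allowed, with exact 95% Poisson intervals as bars. By the rule Itgae stands at 1223 and 1134 CPM in the Ctrl libraries and at 244 and 229 CPM in the ADWA11 libraries.

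The Tgfbr2-cKO libraries gave cDC1 sums of 4 and 10 nuclei, 13 of 14 of them with neural markers, as most passing nuclei of these libraries had. In fibroblast nuclei Tgfbr2 itself measured 336, 248 and 174 CPM at 7 dpi and 226, 219 and 185 CPM at 21 dpi. These 3′ tags may lie outside the deleted stretch and are no check of the deletion. In cDC1, which the Cre does not target, it had 0 to 29 UMIs. At 7 dpi 448 of 1435 genes (31.2%) were past the fold downwards and 396 (27.6%) upwards against Ctrl. All 12 cDC1 markers with enough UMIs were past it downwards, by a median of -2.28 against -0.43 over all genes, with Irf8 at -4.24, Wdfy4 at -3.18 and Itgae at -2.45. Without called doublets 2 were past it upwards and 2 downwards of 12, with a median of 0.19, Wdfy4 at -0.20 and Itgae at 0.62. TMM scaling moved the median of all genes to 0.23 and the split to 481 upwards and 239 downwards. By size the lower genes named were Fnip2 (-4.76, on 3 UMIs in Tgfbr2-cKO), Cpq, Plbd1, Myo1f and Ap1s3. No higher gene met the limits for naming, which a sum of 4 nuclei hardly allows. At 21 dpi 209 of 2248 genes (9.3%) were higher and 176 (7.83%) lower than in the same Ctrl library as above, or 574 and 40 under TMM, which moved the median from 0.11 to 0.84. MHC class II genes were past the fold downwards in 4 of 5 (Ciita, H2-Ab1, H2-Eb1 and Cd74, median -1.13), but Cd74 came to -0.40 (-0.97 to 0.19) under TMM and none of 6 was past the fold with Col1a2 allowed, where 7% of 4814 genes were higher and 10.1% lower. Itgae was lower by the rule (-0.96, -1.58 to -0.30) and higher with Col1a2 allowed (1.03, 0.57 to 1.48), with -0.23 under TMM. Flt3 and Tlr3 were lower of 12 markers by the rule. Among the higher genes by size were Cd180 (2.69, 0.13 to 8.03, on 1 UMI in Ctrl, and -0.20 with Col1a2 allowed), Wac (3 UMIs in Ctrl) and Shtn1.

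Under ADWA11 cell cycle transcripts were lower in cDC1 nuclei at 21 than at 7 dpi. In this pair, the one with the most nuclei, 260 of 3318 genes (7.84%) were past the fold downwards and 135 (4.07%) upwards. In the cell cycle list 9 of 10 were past it downwards and none upwards, with a median of -2.34 against 0.02, and with Col1a2 allowed 13 of 13, with a median of -3.24, where 5.98% of 6854 genes were lower and 7.79% higher. Top2a measured 574 CPM at 7 dpi, in 10 of 20 nuclei, and 74.1 CPM at 21 dpi, in 3 of 32, a log2 ratio of -2.95 (-4.01 to -2.04) and -3.85 (-4.71 to -3.09) with Col1a2 allowed. In male nuclei Top2a was at -0.04, Hells at 2.54 and Mki67, with 0 UMIs at 7 dpi, at a bound of 0.22, and Kif15 was at 0.55 in female and 0.80 in male nuclei, all on few UMIs. Mki67, the proliferation marker, was at -1.87 (-2.98 to -0.88), the formin gene Diaph3 at -3.09 (-4.27 to -2.09) and Hells, a chromatin remodeller of S phase, at -0.47 (-1.67 to 0.68). Lineage genes stood close to each other at the 2 times, with Irf8 at 0.12, Itgae at -0.09 (-0.81 to 0.62), Cd74 at 0.30 and only Tlr11 of 16 markers past the fold, upwards. Tpx2, Lockd and Smc2 were the other genes lower by size, and Ccdc58, Rpl37a, Runx2 (3.20, 1.72 to 5.15), Il13ra1 (2.53) and Napsa (2.39) the higher ones. At 21 dpi Tpx2 had 1 UMI and Lockd and Smc2 had 2 each, and at 7 dpi Ccdc58 had 2.

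Nuclei with at least 3 of the 15 cell cycle genes are called cycling here, by that count alone. They made up 25 of 77 cDC1 nuclei, 32.5% (22.2 to 44.1), against 14.1% of macrophages or microglia, 12.7% of T-like nuclei and 11.99% of all passing nuclei. Thinned to 2000 UMIs each, the share was 20.5% in cDC1 (15 of 73 nuclei), 7.52% in macrophages or microglia and 5.43% in all passing nuclei. By library cycling cDC1 nuclei were 4 of 7, 10 of 20 and 1 of 4 at 7 dpi and 1 of 4, 5 of 32 and 4 of 10 at 21 dpi. Thinned they were 3 of 7, 7 of 20, 0 of 3, 0 of 4, 3 of 29 and 2 of 10. With Col1a2 allowed 31.8%, 47.2% and 25% were cycling at 7 dpi and 13.8%, 14.3% and 46.2% at 21 dpi. In macrophages or microglia the shares were 16.7%, 27.5% and 15.3% and then 4.99%, 3.43% and 6.85%, so that the ADWA11 library at 7 dpi was high in both cell types. Under ADWA11 the share was 28.2% at 7 dpi and 4.39% at 21 dpi in all passing nuclei and 33.3% and 11.2% in T-like nuclei, so it was lower at 21 dpi in each of these classes and not in cDC1 alone.

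**Figure D4:**
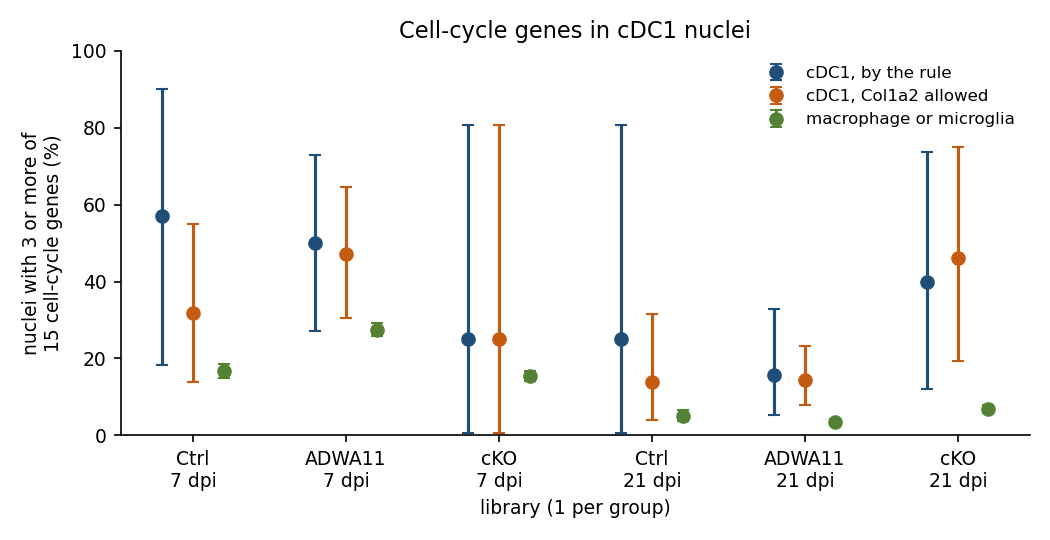
Percent of nuclei with at least 3 of 15 cell cycle genes (y axis) in each library (x axis), for cDC1 by the rule, cDC1 with Col1a2 allowed and macrophages or microglia, with exact 95% binomial intervals. Under ADWA11 the cDC1 points stand at 50.0% and 47.2% at 7 dpi and at 15.6% and 14.3% at 21 dpi.

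In Ctrl the same pair of times rested on 7 and 4 nuclei. Of 755 genes 99 (13.1%) were past the fold downwards and 59 (7.81%) upwards, and with Col1a2 allowed 8.58% and 12.8% of 4930 genes. Zbtb46, Naaa, Irf8 and Id2 were lower at 21 dpi among 13 markers, and with Col1a2 allowed 9 of 16 were lower, with a median of -1.02 against -0.10. In that count at least 2 fibroblast markers were held by 8 of 22 nuclei at 7 dpi and 20 of 29 at 21 dpi, and at least 3 by 3 and 12. Ptprt, Sema6d, Klf9, Igfbp5 and Cp were its higher genes by size (4.29 to 6.26), on 1 to 3 UMIs at 7 dpi. The part of RNA from other cells in the marker ratios was not tested. Naaa came to -0.31 there. Cell cycle genes with Col1a2 allowed were lower in 8 of 9 (median -2.74). By the rule the replication gene Dna2 (-3.66, -9.03 to -1.02, on 1 UMI at 21 dpi) led the lower genes by size, with Rap1gap2 (3 UMIs), Fnip2 and Arsb. In Tgfbr2-cKO 505 of 2822 genes (17.9%) were higher and 282 (9.99%) lower at 21 than at 7 dpi, with Lrrk1 (4.84), Fgr, Fam129a, Btk and Mcm9 the higher genes by size. Each of these named genes had 1 UMI at 7 dpi, with intervals that start at 0.74 (Mcm9) to 2.31 (Lrrk1). The 2 cell cycle genes with enough UMIs there, Hells and Pola1, were past the fold upwards, and without called doublets 0 of 1 was.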

How the data were processed

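The authors sorted DAPI+ nuclei of dissected lesions and made 10x 3′ v3.1 libraries. The deposited values are raw UMI counts per gene and barcode (32285 features, mm10), made with Cell Ranger (7.1.0 per the labels, 7.2.0 per the file headers), not normalised. Members and lists were chosen with earlier results of these data known. Shares carry exact Clopper-Pearson intervals, CPM of summed counts exact Poisson intervals and ratios exact conditional binomial intervals. Sums per library and cell type were tested with edgeR 4.0.16 (quasi-likelihood, TMM, library block, R 4.3.3), with DESeq2 1.42.0 as an alternative, after a test on simulated data. Clustering (scanpy 1.11.5) used 3000 variable genes, 30 components, 15 neighbours and a resolution of 2. Doublets were the top 0.8% of scores per 1000 barcodes, 5835 nuclei, kept in the main values. Named genes were list members, the 10 largest changes per direction between cell types (adjusted p under 0.05, at least 20 CPM) and the 5 largest per direction between libraries (at least 10 UMIs, no nucleus over 25%), without Gm, Rik, mitochondrial, ribosomal (cell types only), Xist, Tsix and Y-linked genes. In the sums of 4 nuclei (Tgfbr2-cKO at 7 dpi and Ctrl at 21 dpi) a gene meets the 25% limit only with equal UMIs in all 4. By the rule no gene higher in such a sum was named, so pairs with these sums show 1 direction. The file held no feature for 5 listed symbols. Some genes that these rules name are not reported here.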

Additional observations from a re-analysis of the deposited data

Results flagged for a closer look

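The point estimates of the share of cDC1 nuclei had opposite signs in pairs of groups under the same contrast, on 4 to 32 nuclei a library. Tgfbr2-cKO stood below Ctrl at 7 dpi by a log2 ratio of -1.25 (-3.47 to 0.73), an interval that includes 0, and above it at 21 dpi by 2.29 (0.49 to 4.41), a difference of log2 ratios of 3.54. From 7 to 21 dpi the log2 ratio was 0.46 (-0.39 to 1.34) under ADWA11 and -1.45 (-3.67 to 0.52) in Ctrl, both with intervals that include 0 (difference 1.91), and 2.09 (0.29 to 4.21) in Tgfbr2-cKO (difference from Ctrl 3.54). With 1 library per group these differences were not tested. Both that involve Tgfbr2-cKO rest on nuclei that mostly carry neural markers, as do most passing nuclei of these libraries. They also rest on a Ctrl library in which the Col1a2 exclusion removed most nuclei with cDC1 genes. With 1 sample per group, no sample could be checked against others of its group.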

How the results depend on the processing

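Alternatives with Col1a2 allowed, with a denominator free of Col1a2, with sums of at least 4 nuclei and with comparison nuclei limited to those with Ptprc were chosen after seeing the data. No paired analysis was possible because each group is 1 library and the labels give no replicate numbers. Nuclei of the female and the male mouse of each library are given as separate values, and no test was made over them. The share under ADWA11 at 21 dpi stayed above that of Ctrl in every alternative, with log2 ratios of 0.97 to 3.34 (lowest 0.97 among Ptprc nuclei and 1.10 in female nuclei, both with Col1a2 allowed, the last alone with an interval that included 0, -0.025 to 2.25). For Tgfbr2-cKO at 21 dpi the ratio was 0.13 when thinned, and reversed with Col1a2 allowed to -0.19, alone or with other choices to -0.062 (no doublets), -0.034 (3 rule genes), -0.51 (thinned), -0.39 (Ptprc nuclei), -0.96 (female) and -0.16 (male), and to -0.37 against nuclei without Col1a2. In all 105 share ratios moved by less than counting error, 3 moved by more, these 8 reversed from an interval clear of 0, and 10 gave no usable value. Among the 105, ratios whose interval by the rule included 0 changed sign for Ctrl over time (0.33 in female and 0.15 among Ptprc nuclei, Col1a2 allowed), ADWA11 at 7 dpi (-0.030, thinned, Col1a2 allowed) and ADWA11 over time (-0.074, 3 rule genes). Genes called against macrophages numbered 1032 with Col1a2 allowed, 1125 with Ptprc comparison nuclei, 895 with sums of 4, 974 thinned, 801 in DESeq2, 553 with size factors, and 126 to 609 leaving out a library. Against the Mgl2 set they numbered 1 without the block, 37 thinned, 13 with sums of 4, 72 with Col1a2 allowed, 151 with Ptprc nuclei and 0 to 14 leaving out a library, and against the Ccr7 set 258 (thinned), 827, 1885, 870 and 280 to 448. Genes past the fold between libraries, 305 (ADWA11, 7 dpi), 844 (Tgfbr2-cKO, 7 dpi), 212 (ADWA11, 21 dpi), 385 (Tgfbr2-cKO, 21 dpi), 158 (Ctrl over time), 395 (ADWA11 over time) and 787 (Tgfbr2-cKO over time), became in that order 760, 1413, 1418, 824, 1055 and 944 with Col1a2 allowed for the first 6, and 486, 1650, 725, 777, 503, 729 and 1244 with no UMI minimum. Without doublets they were 70 (Tgfbr2-cKO, 7 dpi), 127 (ADWA11, 21 dpi), 83 (Ctrl) and 254 (Tgfbr2-cKO over time), and with Col1a2 allowed too 83, 1115, 1038 and 260, with 761 for ADWA11 over time. At least 3 rule genes gave 523 for Tgfbr2-cKO over time, and TMM gave 538, 478 and 614 for ADWA11 at 7 and 21 dpi and Tgfbr2-cKO at 21 dpi. Female nuclei gave 99, 333, 112, 73 and 189 and male nuclei 7, 82, 28, 38 and 6, in the pairs they moved. These counts rest on unlike numbers of genes tested. Between libraries these were 755 to 3318 by the rule and 8976 to 13399 with no UMI minimum. They were 3238 to 7079 with Col1a2 allowed for the first 6 pairs and 164 to 1811 by sex. For Tgfbr2-cKO at 7 dpi 27.6% were past the fold upwards and 31.2% downwards, and with no minimum 5.26% and 9.04%. Fits between cell types tested 14761 genes, 8334 with Col1a2 allowed, 7286 with Ptprc nuclei and 6448 with sums of 4. Single genes were followed against macrophages, in the cell cycle list under ADWA11 over time, and for Itgae and Tgfbr1 in ADWA11 against Ctrl. Where UMIs sufficed, those that reversed were Gfap against macrophages (0.20, sums of 4), Knl1 against macrophages (-0.11, thinned), Mki67 (0.22 as a bound, male) and Kif15 (0.55, female) under ADWA11 over time and Tgfbr1 for ADWA11 at 7 dpi (1.51, female). Genes not followed in this way also changed sign above. Among them were Itgae and Cd180 for Tgfbr2-cKO at 21 dpi, Flt3 for Tgfbr2-cKO at 7 dpi, and Lrmda and Nrip1 for ADWA11. For these changes the cause was not tested. Depth limits the values most in Ctrl at 21 dpi, where 3 UMIs are worth 117 CPM.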
